A study of Mus musculus with 6 samples.

Results

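Potassium channels carry the outward currents that end the cardiac action potential and hold the cell at its resting potential. The genes described are 10 that encode pore-forming subunits of such channels in heart muscle, chosen by symbol: Kcnq1, Kcnh2, Kcnj2, Kcnj3, Kcnj5, Kcnj11, Kcna5, Kcnd2, Kcnd3 and Kcnk3. Of these, 9 were found among the 28660 loci analysed, and Kcnj2 is not analysed here. They were measured in HL-1, an immortalised line of beating mouse atrial muscle cells, grown in Claycomb medium with serum, glutamine and norepinephrine. Nuclei were fractionated into the chromatin pellet extract and the soluble nuclear extract, and each fraction gave 3 libraries, described as biological replicates. Both fractions come from the same cells, for which no treatment is named, and synthetic RNA standards (spike-ins) went into each fraction ahead of the extraction of RNA. The authors' table gives a single pooled value per fraction, so no spread between cultures can be set beside any value and no p-value was computed. HL-1 is 1 line in culture, which limits it as a model of heart tissue.

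The pore-forming subunits fall into classes by their gating. Voltage-gated subunits open on depolarisation and repolarise the membrane. Inward rectifiers pass current near the resting potential, and some of them answer to G proteins or to ATP. Subunits with tandem pore domains give a background leak. A message starts as a nascent transcript on chromatin, is spliced largely there, and is then released to the nucleoplasm and exported. In a fractionation of this kind, nascent and retained RNA is therefore known to stay with the pellet, and released message is known to pass to the soluble extract.

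Values are given as FPKM, fragment counts scaled to transcript length and to mapped fragments, so levels of different genes are compared per length within 1 fraction. The fold of a gene is pellet FPKM over soluble FPKM on the log2 scale, after the pellet value is multiplied by 3.37, a factor set from the spike-ins, and this is called the spike-in scale. On the FPKM scale, without that factor, every log2 fold is lower by 1.75. A locus with a mean of both values of at least 0.5 FPKM was called higher or lower where its fold reached 2 in either direction. The only error available is technical. The 47 spike-ins above 0.5 FPKM scattered about the factor with a log2 SD of 0.12 and a range from -0.28 to 0.23, so 0.51 wide. In pooled extracts of many nuclei, more of a message on the chromatin of every nucleus and more nuclei with such message cannot be told apart.

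The cardiomyocyte label was checked first. Of 14 cardiomyocyte markers, 12 were found and all 12 passed a mean of 0.5 FPKM, with summed levels of 749 FPKM in the pellet and 3848 FPKM in the soluble extract. Myl7, Tnnt2 and Tnni3 had the highest levels of the 12 in both fractions. Nppa had the lowest, with 0.208 FPKM in the pellet and 1.63 FPKM in the soluble extract. For other cell types the markers past 0.5 FPKM numbered 3 of 9 for fibroblasts, 2 of 7 for endothelium, 5 of 7 for smooth muscle, 2 of 6 for neurons, 1 of 6 for immune cells and 1 of 7 for skeletal muscle. Their summed levels in the pellet were 88.4 FPKM for fibroblasts, 2.47 for endothelium, 299.9 for smooth muscle, 16.2 for neurons, 0.663 for immune cells and 1.85 for skeletal muscle. The sums in the soluble extract were 347 FPKM for fibroblasts, 7.07 for endothelium, 1940 for smooth muscle, 24.7 for neurons, 0.988 for immune cells and 3.68 for skeletal muscle. Col3a1 and Acta2 made up most of the fibroblast and smooth muscle sums. Cdh5 of endothelium, Snap25 and Rbfox3 of neurons and Ptprc of immune cells all stayed below 0.05 FPKM in both fractions. Other markers of the same lists passed 0.5 FPKM: Kdr and Tek of endothelium, Map2 and Syt1 of neurons and Cd68 of immune cells. Map2 had 14.9 FPKM in the pellet and 22.3 FPKM in the soluble extract, and Kdr had 1.62 and 5.52 FPKM. Both fractions were drawn from the same nuclei, and the part of such genes in the channel values was not tested.

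Among the 7 named potassium channel genes above the level filter, Kcnh2 and Kcnj5 had the highest levels in both fractions. Of these 7, 3 (Kcnq1, Kcnd2 and Kcnj3) passed 2-fold towards the pellet by the spike-in scale. That is against 31.9% of all 13917 loci above the filter and 24.0% of the 11397 protein-coding ones. None of the 7 was lower by 2-fold, against 10.5% of all such loci. The median log2 fold of the 7 was 0.53, beside 0.41 for all loci above the filter and 0.26 for protein-coding genes. On the FPKM scale the direction turned for 6 of the 7: all 7 folds lay below 0, the calls were 0 higher and 4 lower, with -1.23 as the median. There, 9.66% of all loci above the filter were higher and 61.2% lower, and 68.2% of the protein-coding ones were lower. At 1.5-fold on the spike-in scale the channel genes still numbered 3 higher and 0 lower, against 43.9% and 19.1% of all loci. Kcnd3 and Kcna5 were below the level filter.

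**Figure D1:**
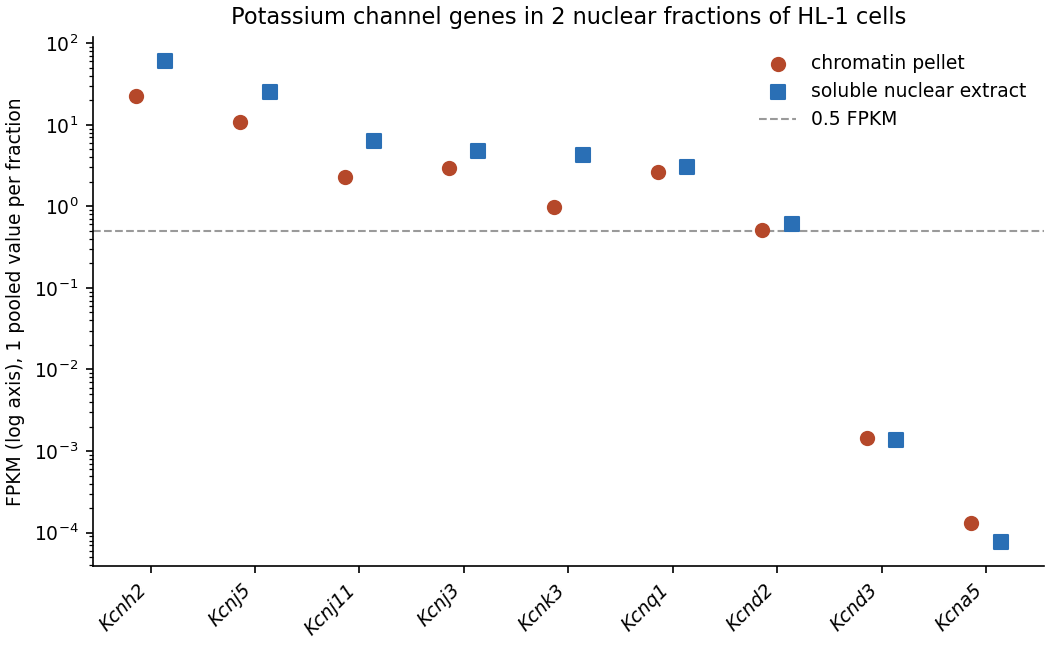
FPKM of the 9 potassium channel genes in the chromatin pellet (circles) and the soluble nuclear extract (squares), on a log axis, with 1 pooled value per fraction and no error bars. Kcnh2 and Kcnj5 stand above 10 FPKM in both fractions, 5 genes lie between about 0.5 and 7 FPKM, and Kcnd3 and Kcna5 lie below 0.002 FPKM.

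Sequence just upstream of a start is shown for 3 of the genes, because the regulator named in the table's noncoding class, Tbx5, is a T-box factor and 4 of the channel genes lie near loci of that class. Kcnj3 has the most such neighbours (6), Kcnh2 has the only ones above the level filter, and Kcnj5, the partner subunit of Kcnj3, has none within 100 kb. T-box proteins are known to bind elements with the core GGTGTG, searched here on both strands (as GGTGTG or CACACC). Matches are in capitals, and each sequence is the 250 bases before the start, 5′ to 3′ on the gene's strand, from RefSeq on GRCm38.p6. They cover chr2:55435720-55435969 (plus strand) for Kcnj3, chr5:24329592-24329841 (minus strand) for Kcnh2, and chr9:32344345-32344594 (minus strand) for Kcnj5.
Kcnj3: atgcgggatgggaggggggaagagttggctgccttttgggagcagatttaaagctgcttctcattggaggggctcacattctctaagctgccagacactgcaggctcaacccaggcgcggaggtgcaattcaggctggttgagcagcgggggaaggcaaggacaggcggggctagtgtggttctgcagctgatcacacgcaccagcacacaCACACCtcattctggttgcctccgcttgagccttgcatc
Kcnh2: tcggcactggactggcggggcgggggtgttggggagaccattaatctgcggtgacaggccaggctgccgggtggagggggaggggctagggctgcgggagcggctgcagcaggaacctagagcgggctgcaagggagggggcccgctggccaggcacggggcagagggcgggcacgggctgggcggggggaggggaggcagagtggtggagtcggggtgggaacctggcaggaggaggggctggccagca
Kcnj5: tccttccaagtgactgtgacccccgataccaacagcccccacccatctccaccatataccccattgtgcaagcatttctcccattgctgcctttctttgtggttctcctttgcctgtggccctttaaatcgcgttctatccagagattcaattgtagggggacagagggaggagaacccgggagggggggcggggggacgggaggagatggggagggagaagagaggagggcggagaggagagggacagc
The Kcnj3 sequence holds 1 match, which begins 39 bases before the start and reads CACACC. The Kcnh2 and Kcnj5 sequences hold no run of these letters. Of the 6 channel genes with a promoter entry, Kcnd3 also has 1 match, at 143 bases before its start, while Kcnd2 and Kcna5 have 0. A match of this kind is found in 16.3% of the 32851 RefSeq promoters, 250 bases each, and it is a description of letters, not a binding site. The starts listed for Kcnj3, Kcnh2 and Kcnj5 all lie inside the genes and not at their outer ends. That of Kcnj5 is close to its outer end at 32344380, and the printed stretch runs past that end.

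The voltage-gated delayed rectifiers differed by fraction. Kcnh2 encodes the pore of the rapid delayed rectifier, and it was the most abundant of the channel messages. It is annotated as ENSMUSG00000038319.10 on chromosome 5, from 24319589 to 24351604 in mm10. Kcnh2 had 22.3 FPKM in the pellet and 61.0 FPKM in the soluble extract. Of protein-coding genes above the level filter, 91.7% lay below it in the pellet and 88.3% in the soluble extract. Kcnh2 made up 52.3% of the summed pellet FPKM of the 9 genes and 57.8% of their soluble sum. Its log2 fold was 0.30 on the spike-in scale and -1.45 on the FPKM scale, so it was within 2-fold on the spike-in scale only.

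Kcnq1 encodes the pore of the slow delayed rectifier and lies in an imprinted domain on chromosome 7. Its record, ENSMUSG00000009545.10, spans 143106362 to 143427042. Kcnq1 had 2.66 FPKM in the pellet and 3.01 FPKM in the soluble extract, the closest pair by ratio among the 7 genes. Its log2 fold of 1.58 on the spike-in scale was the highest of the 7, a 2.99-fold difference, and it became -0.18 on the FPKM scale. The ratio of Kcnh2 to Kcnq1 was 8.36 in the pellet and 20.3 in the soluble extract. Both delayed rectifier messages were thus nearer to each other on chromatin than in the soluble extract.

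The transient outward and ultrarapid subunits were at low levels. Kcnd2 and Kcnd3 encode pores of the transient outward current, which shapes early repolarisation. Kcnd2 (ENSMUSG00000060882.5, chromosome 6, 21215503 to 21729805) had 0.515 FPKM in the pellet and 0.603 FPKM in the soluble extract, a mean of 0.559 just above the level filter. Its log2 fold was 1.53 on the spike-in scale and -0.23 on the FPKM scale. Spike-ins between 0.5 and 5 FPKM had a log2 SD of 0.14 (n = 22).

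Kcnd3 (ENSMUSG00000040896.12, chromosome 3, 105441595 to 105674002) had 0.00146 FPKM in the pellet and 0.00135 FPKM in the soluble extract. Kcna5, the pore of the ultrarapid rectifier of atrial muscle, had 0.00013 FPKM in the pellet and 7.7e-05 FPKM in the soluble extract. The table places Kcna5 (ENSMUSG00000045534.3) on chromosome 6 from 126532553 to 126698192, although its RefSeq span covers 3005 bp of that stretch. Spike-ins below 0.05 FPKM scattered with a log2 SD of 0.85 (n = 19), so no fold is read for Kcnd3 or Kcna5. Library depth is not known, so these values do not show that the genes are silent.

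The muscarinic channel pair was found at unequal levels. Kcnj3 and Kcnj5 encode the subunits that assemble into the G protein-gated channel through which acetylcholine slows the atria and the pacemaker. Kcnj5 (ENSMUSG00000032034.5, chromosome 9, 32314783 to 32344237) had 10.9 FPKM in the pellet and 25.5 FPKM in the soluble extract. Kcnj3 (ENSMUSG00000026824.7, chromosome 2, 55433514 to 55598145) had 2.96 FPKM in the pellet and 4.71 FPKM in the soluble extract. Kcnj5 thus stood 3.69-fold above Kcnj3 in the pellet and 5.41-fold above it in the soluble extract. The log2 fold was 0.53 for Kcnj5 and 1.08 for Kcnj3 on the spike-in scale, and -1.23 for Kcnj5 and -0.67 for Kcnj3 on the FPKM scale. Kcnj3 passed the 2-fold threshold by 0.08, less than the SD of 0.12 among spike-ins. The 0.55 between the pair is slightly more than the 0.51 covered by all 47 spike-ins, and unlike either fold it does not depend on the scaling.

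Kcnj11 encodes the pore of the ATP-sensitive channel, which opens when ATP runs low. It had 2.26 FPKM in the pellet and 6.34 FPKM in the soluble extract, with a log2 fold of 0.27 on the spike-in scale and -1.49 on the FPKM scale. Its record, ENSMUSG00000096146.1, covers 1173 bp of chromosome 7 (46098725 to 46099897), whereas the RefSeq gene spans 3830 bp (46097123 to 46100952). Fragments from the remaining stretch may not be counted in it.

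Kcnk3 encodes a tandem-pore subunit of the background leak that is found in atrial muscle. It was the only one of the 7 with a spike-in log2 fold below 0. Kcnk3 (ENSMUSG00000049265.6, chromosome 5, 30579448 to 30625270) had 0.970 FPKM in the pellet and 4.29 FPKM in the soluble extract. Its log2 fold was -0.39 on the spike-in scale, within 2-fold, and -2.15 on the FPKM scale, the lowest of the 7 on both. Another record, the processed transcript RP23-224J9.3, has the same coordinates as Kcnk3. That record had 0.585 FPKM in the pellet and 0.607 FPKM in the soluble extract, with a log2 fold of 1.70, or -0.05 on the FPKM scale. Kcnj3 and Kcnh2 each share coordinates with 1 record below the level filter. The part of such records in the values of these genes was not tested.

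The order of the 7 folds, which no common factor changes, ran from Kcnq1 through Kcnd2, Kcnj3, Kcnj5, Kcnh2 and Kcnj11 to Kcnk3, over a range of 1.97 on the log2 scale. Set against the 0.51 covered by the spike-ins, only 2 steps between neighbours were larger. These are the step of 0.55 from Kcnj3 to Kcnj5 and the step of 0.66 from Kcnj11 to Kcnk3. Kcnq1 and Kcnd2 differed by 0.05, Kcnd2 and Kcnj3 by 0.44, Kcnj5 and Kcnh2 by 0.23, and Kcnh2 and Kcnj11 by 0.03. These steps lay within the 0.51 covered by the spike-ins, although those of 0.44 and 0.23 exceeded the spike-in SD of 0.12. Neither yardstick is the error of a difference between 2 genes. By level, the order was Kcnh2, Kcnj5, Kcnj3, Kcnq1, Kcnj11, Kcnk3 and Kcnd2 in the pellet, and Kcnh2, Kcnj5, Kcnj11, Kcnj3, Kcnk3, Kcnq1 and Kcnd2 in the soluble extract. Without replicate values, no error can be put on a level.

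**Figure D2:**
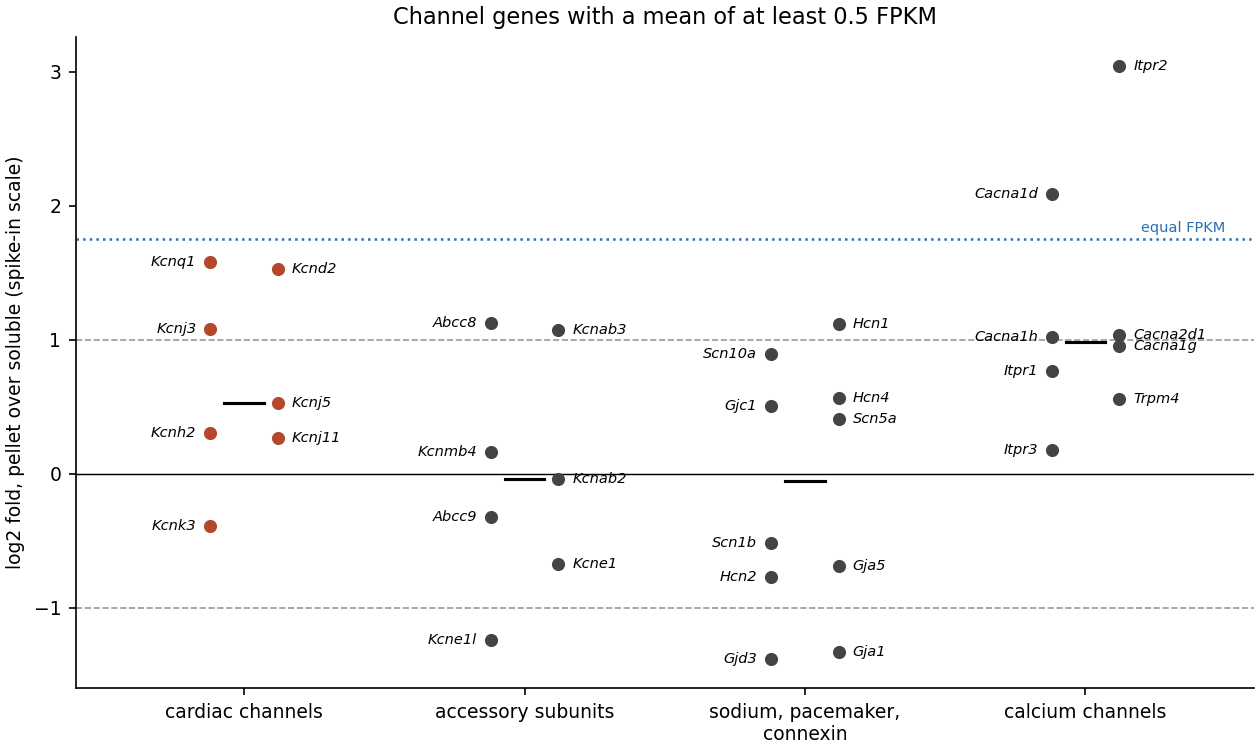
Log2 fold of pellet over soluble on the spike-in scale for cardiac potassium channel genes, accessory subunit genes and sodium and calcium channel lists with a mean of at least 0.5 FPKM, with 1 point per gene and a short bar at each list's median. The dashed lines mark 2-fold, and the dotted line at 1.75 marks equal FPKM in both fractions. All 7 cardiac potassium channel genes lie below the dotted line, and Itpr2 and Cacna1d of the calcium list lie above it.

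Accessory subunits, which change the gating or traffic of the pore, were spread over both sides. Of 19 listed genes, 16 were found and 7 passed the level filter, of which 2 were higher and 1 lower, and their median log2 fold was -0.04 by the spike-in scale. The FPKM scale gave 0 higher, 5 lower and a median of -1.79. Abcc8, the sulfonylurea receptor that partners Kcnj11, had 4.98 FPKM in the pellet and 7.72 FPKM in the soluble extract, with a log2 fold of 1.12, or -0.63 on the FPKM scale. Abcc9, the receptor known from ventricular channels, had 2.28 FPKM in the pellet and 9.62 FPKM in the soluble extract and a log2 fold of -0.33, or -2.08. Abcc8 was 2.20 times the level of Kcnj11 in the pellet and 1.22 times in the soluble extract, while Abcc9 was 1.01 times its level in the pellet and 1.52 times in the soluble extract. The receptor with the higher level thus differed between the fractions.

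Kcne1 encodes the small subunit that joins Kcnq1 to form the slow delayed rectifier. It had 1.02 FPKM in the pellet and 5.50 FPKM in the soluble extract, with a log2 fold of -0.67, or -2.43 on the FPKM scale. Kcnq1 therefore stood at 2.61 times Kcne1 in the pellet and at 0.547 times Kcne1 in the soluble extract. The difference of 2.25 between their log2 folds does not depend on the scaling and exceeds the 0.51 covered by the spike-ins. Kcne1l, a related small subunit gene now named Kcne5, was the accessory gene lower in the pellet, with 0.305 FPKM in the pellet, 2.42 FPKM in the soluble extract and a log2 fold of -1.24, or -2.99 on the FPKM scale. Kcnab3, a beta subunit of voltage-gated channels, had a log2 fold of 1.07, or -0.68 on the FPKM scale. Kcnmb4, a beta subunit of calcium-activated channels, had 0.17, or -1.59. Kcne2, which can join Kcnh2, and Kcnip2, the partner of Kcnd2 and Kcnd3, stayed below the level filter at 0.115 and 0.327 FPKM in the pellet and 0.118 and 0.0893 FPKM in the soluble extract.

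Most other genes of the potassium channel family were at low levels. Of 71 further protein-coding genes whose symbols start with Kcn, 9 passed the level filter (12.7%), 5 of which are accessory genes already counted, against 7 of the 9 cardiac genes. The cardiac genes had been named for their role in heart muscle. Among the 9 further genes, the spike-in scale gave 2 higher, 1 lower and a median log2 fold of 0.17, or 0 and 7 with a median of -1.59 on the FPKM scale. Kcnab2, a beta subunit gene, had 9.92 FPKM in the pellet and 34.4 FPKM in the soluble extract, with a log2 fold of -0.04, or -1.79. Kcng2, not among the accessory genes, had 8.73 FPKM in the pellet and 30.2 FPKM in the soluble extract, also with -0.04, or -1.79. Both stood above Kcnj5 in the soluble extract (25.5 FPKM) and below it in the pellet (10.9 FPKM).

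Calcium and sodium channel genes gave a wider frame. Of 8 calcium channel and related genes above the level filter, of 9 found, 4 were higher and 0 lower, and their median log2 fold was 0.99, or 1 higher and 2 lower with -0.77 on the FPKM scale. Of 10 sodium channel, pacemaker and connexin genes, of 13 found, 1 was higher and 2 lower, and their median was -0.06, or 0 and 8 with -1.81. The potassium channel median of 0.53 lies between these medians, and no difference between the lists was tested.

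Among the 7 potassium channel genes above the level filter, the 3 higher in the pellet were also the 3 with the longest RefSeq spans. Kcnd3, below the filter and not called, spans 222 kb. Kcnd2 spans 514 kb, Kcnq1 320 kb and Kcnj3 186 kb, and 3 of 3 were higher, with log2 folds from 1.08 to 1.58. Kcnk3 spans 37.1 kb, Kcnh2 32.1 kb, Kcnj5 29.7 kb and Kcnj11 3.83 kb, and 0 of these 4 were higher, with log2 folds from -0.39 to 0.53. The same order was seen across protein-coding genes, of which 10726 (94.1%) had a RefSeq span. The 1423 genes of 100 kb and over had a median of 0.96 on the log2 scale, with quartiles of 0.43 and 1.51, and 47.7% of them were higher. The 3177 genes from 30 to 100 kb had a median of 0.54, the 3640 from 10 to 30 kb had 0.12, and the 2486 under 10 kb had -0.44, with 29.4%, 18.6% and 10.7% higher. On the FPKM scale the 4 medians, from longest to shortest, were -0.80, -1.21, -1.64 and -2.19.

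Among the other channel genes listed above, each counted once, 4 of 7 with spans of 100 kb and over were higher, with a median of 1.04. Of 22 shorter ones 4 were higher and 3 lower, and their median was 0.29. Length and fold did not go together in every case. Abcc9 spans 114.9 kb and had -0.33, and Kcnab3 spans 6.78 kb and had 1.07. The part of gene span in the channel folds was not tested.

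**Figure D3:**
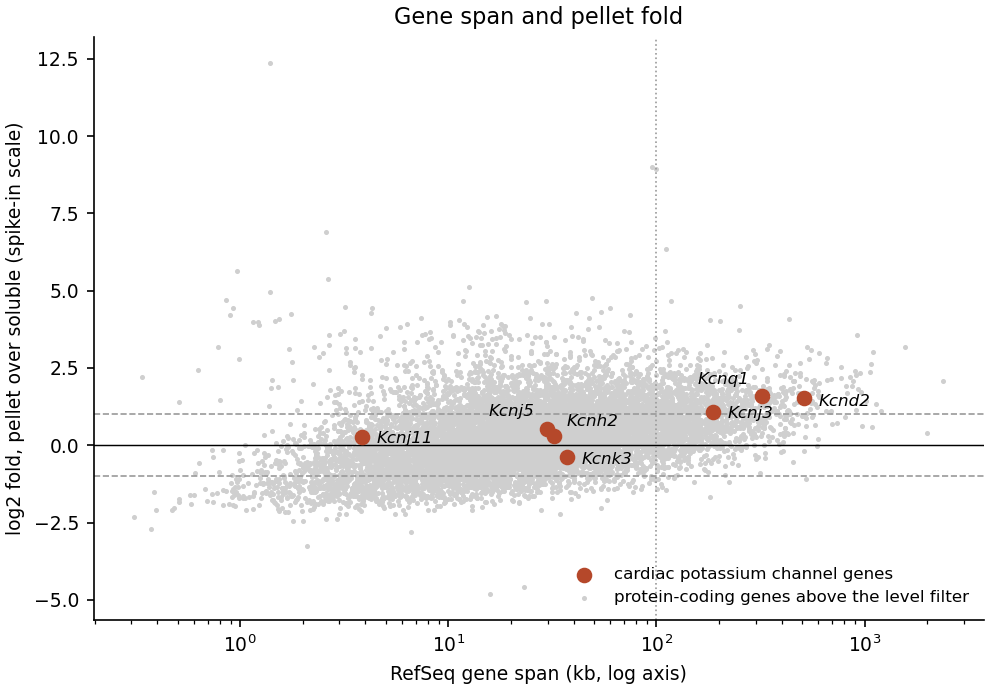
Log2 fold of pellet over soluble on the spike-in scale against RefSeq gene span on a log axis, for protein-coding genes above the level filter (grey, 1 point per gene) and the 7 cardiac potassium channel genes (large points). The dashed lines mark 2-fold and the dotted line 100 kb. Kcnq1, Kcnd2 and Kcnj3 lie right of 100 kb and above the upper line, and the other 4 lie left of it and within 2-fold.

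The stretch of chromosome 7 that the table gives for Kcnq1 is shared by 11 further records, among them Kcnq1ot1, the long antisense RNA known to silence genes of this imprinted domain in cis. These records were chosen by their coordinates after the values were seen. Of the 11, 10 had a higher log2 fold than the Kcnq1 message, a comparison that the scaling does not change. Some of these 10 were below the level filter. Those with a mean below 0.05 FPKM lay where spike-ins scattered with a log2 SD of 0.85. The smallest excess over Kcnq1 was 0.10, less than the spike-in SD of 0.37 from 0.05 to 0.5 FPKM. Of the 5 records above the level filter, 4 were called higher on the spike-in scale, against 31.9% of all loci. No share for loci of the same types is set beside these counts. Kcnq1ot1 had 0.154 FPKM in the pellet and 0.0126 FPKM in the soluble extract, below the level filter. RP23-366M16.2, a record of the unclassified type TEC, was by far the most abundant. It had 303.1 FPKM in the pellet and 99.5 FPKM in the soluble extract, with a log2 fold of 3.36, or 1.61 on the FPKM scale. That is 113.9 times the Kcnq1 level in the pellet and 33.1 times in the soluble extract.

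Among the other records above the level filter, Gm27803 and Gm27539, of the miscellaneous RNA type, had log2 folds of 4.41 and 4.24, or 2.66 and 2.49 on the FPKM scale. The second TEC record, RP23-366M16.1, had 3.38, or 1.63. The antisense record 4933417O13Rik was the exception, at 0.38, or -1.38, and a second version of the same identifier is listed beside it as RP23-124B2.2. How fragments in this stretch were divided between Kcnq1 and the records inside it is not stated. The part of such fragments in the Kcnq1 value was not tested.

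**Figure D4:**
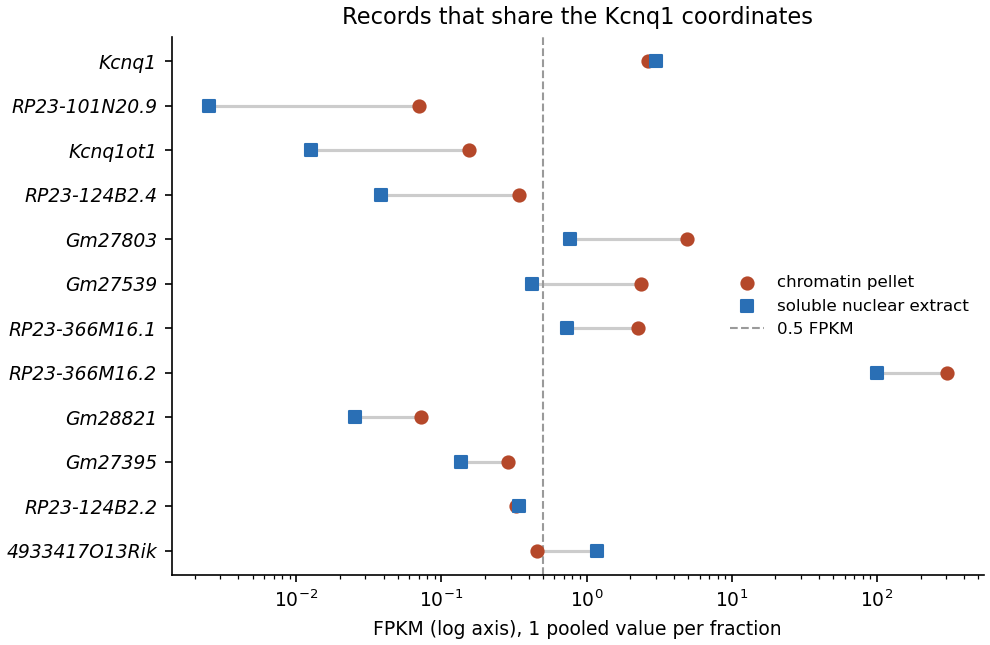
FPKM in the chromatin pellet (circles) and the soluble nuclear extract (squares), on a log axis, of Kcnq1 and the 11 records with the same coordinates in the table, ordered below Kcnq1 by fold. RP23-366M16.2 lies near 303 FPKM in the pellet, and the pellet value is the larger for 9 of the 11 records.

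Noncoding loci of the type Tbx5_dep_ncRNA lay within 100 kb of 4 of the 9 potassium channel genes, namely Kcnj3, Kcnh2, Kcnj11 and Kcnk3. Loci of this type were near 8.77% of the 11397 protein-coding genes above the level filter and near 3 of the 71 further Kcn genes (4.23%). The 4 channel genes are all among the 7 above the filter. There were 13 such loci with 11 different sets of coordinates. All 13 had log2 folds above that of the channel message they neighbour, 12 of them by 2-fold or more, and both comparisons are free of the scaling. By the spike-in scale 13 of 13 were called higher, and by the FPKM scale 10. Of all 849 loci of the type, 93.5% were higher on the spike-in scale. The channel loci thus follow their class. Only 2 of the 13 passed the level filter, and for the others the spike-in SD was 0.37 (n = 16, 0.05 to 0.5 FPKM).

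The 3 loci near Kcnh2 lie in a run on chromosome 5, from 52.9 to 59.2 kb beyond the lower-coordinate end of the gene. XLOC_043238 (24260233 to 24260393) had 6.44 FPKM in the pellet and 1.18 FPKM in the soluble extract, with a log2 fold of 4.20, or 2.44 on the FPKM scale. It is 161 bp long, and its FPKM rests on few positions. XLOC_043241 (24265236 to 24266646) had 0.970 FPKM in the pellet and 0.140 FPKM in the soluble extract, with 4.55, or 2.80. None of the 3 overlaps a RefSeq gene. The Kcnh2 message had 0.30 in the same table, so their folds were above it by 3.89 and 4.25.

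The 6 loci near Kcnj3 flank it closely. A group of 3 ends 79 bp short of the table's Kcnj3 record with shared coordinates (chromosome 2, 55411790 to 55433435), and RefSeq places all but the first bases of that stretch inside Kcnj3, whose span begins at 55411798. Whether they carry fragments of Kcnj3 itself was not tested. Another group of 3 lies from 1.52 to 10.8 kb past the other end and outside RefSeq genes. All 6 were below the level filter, from 0.113 to 0.28 FPKM in the pellet and from 0.0265 to 0.438 FPKM in the soluble extract. Their log2 folds ran from 1.11 to 4.02, with a median of 3.57. XLOC_032086, inside the RefSeq span of Kcnj3, had 1.11 and so differed from the Kcnj3 message by 0.03, while the other 5 were above it by 2-fold or more.

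Kcnj11 and Kcnk3 had 2 loci each within 6 kb of the table's record, all below the level filter. Those at Kcnj11 had log2 folds of 2.67 and 3.37, against 0.27 for the message, and 1 of them overlaps the pseudogene Gm18706. Those at Kcnk3 had 2.44 and 3.23, against -0.39 for the message.

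**Figure D5:**
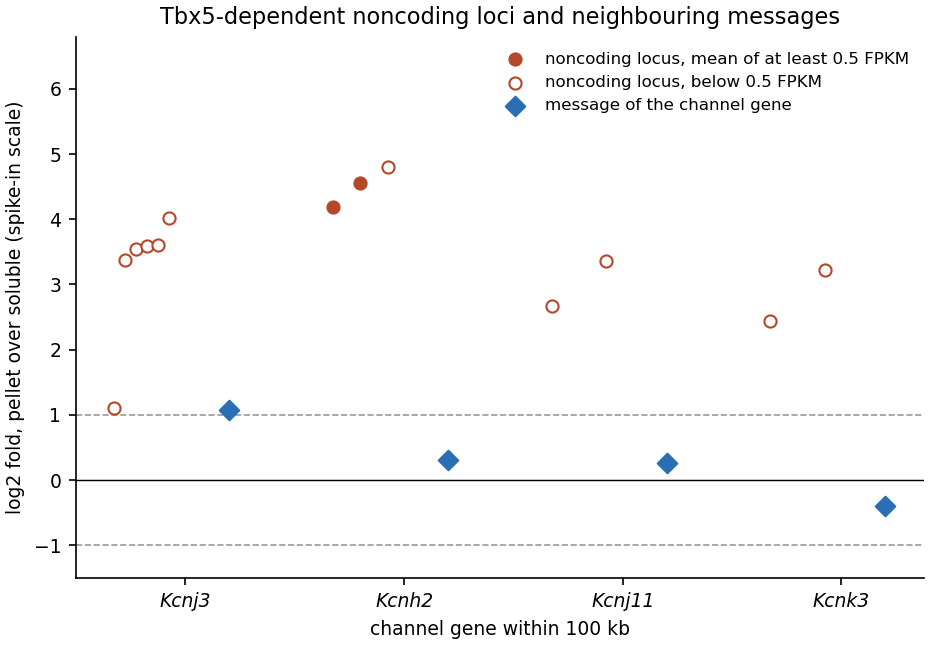
Log2 fold of pellet over soluble on the spike-in scale for the 13 Tbx5_dep_ncRNA loci (circles, filled where the mean is at least 0.5 FPKM) and for the channel message they neighbour (diamonds). All 13 circles lie above the diamond of their gene, and 1 of the 6 at Kcnj3 does so by 0.03.

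Across the 2 fractions, the gene most like each channel gene was sought among 47 genes above the level filter, by distance in log2 soluble FPKM and log2 scaled pellet FPKM. The 47 are from the lists of accessory subunits, sodium and calcium channels, cardiac transcription factors and cardiomyocyte markers. The cardiac potassium channel genes themselves and the regulators of these channels were left out of the search. So were the 4 further Kcn genes above the level filter that are not accessory genes. Genes outside the 47 may lie nearer, and Kcnd1, at 0.375 FPKM in the pellet and 0.880 FPKM in the soluble extract, lies nearer to Kcnd2. With only 2 values per gene, likeness means a similar level and a similar fold and nothing more. Within the 47, Kcnj5 was nearest to the connexin gene Gjc1, at a distance of 0.07. Kcnj11 was nearest to Kcnmb4 (0.17), Kcnj3 to the calcium channel gene Cacna1g (0.28), Kcnk3 to Kcne1 (0.37) and Kcnh2 to the transcription factor gene Mef2a (0.47). For Kcnq1 the nearest of the 47 was Trpm4 and for Kcnd2 it was Kcnab3, both at 0.77. At that distance the folds differed. Trpm4 had a log2 fold of 0.56 against 1.58 for Kcnq1, and Kcnab3 had 1.07 against 1.53 for Kcnd2.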

How the data were processed

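RNA-seq of 6 nuclear RNA libraries was deposited as 1 table. Per the labels' protocols, the kits removed rRNA and kept strand. The build is mm10 and the tools are HISAT2, SAMtools, Cufflinks, bedtools and Cuffdiff, per the submitters' processing notes, with no version or setting given in the sources used here. Per the file headers, the authors deposited 1 FPKM value per fraction, a rescaled pellet signal, a total signal, the ratio of rescaled pellet to soluble and the log10 of the last 2. Tested against the spike-ins, the rescaling factor equals the slope of a least-squares line without intercept that predicts the soluble from the pellet FPKM of 82 spike-ins.

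Of 30687 lines, 1945 repeated an identifier and were dropped. Starts in the table count from 0, and 1 was added. Folds were recomputed from FPKM with no pseudocount in Python 3.11.15 with pandas 2.3.3 and checked on simulated data. FPKM keeps no counts, so depth is unknown and no interval is given. The members and lists were chosen with earlier results of these data known. All members were named, with up to 3 genes at each end of the other lists, and records sharing coordinates and some further genes were named after their values were seen. Some genes of the wider Kcn family are not reported singly here. The alternatives were scaling, spike-in factor, level filter, pseudocount, fold threshold and distance.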

Additional observations from a re-analysis of the deposited data

How the results depend on the processing

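Without the spike-in factor, on the FPKM scale, 0 of the potassium channel genes were higher in the pellet and 4 were lower, and the median log2 fold turned to -1.23 and that of the wider Kcn family to -1.59. The accessory genes' median, already below 0, moved to -1.79. The log2 folds that turned were those of Kcnq1 (-0.18), Kcnd2 (-0.23), Kcnj3 (-0.67), Kcnj5 (-1.23), Kcnh2 (-1.45) and Kcnj11 (-1.49), as a constant shift of 1.75 makes necessary. With no filter on level 5 of 9 potassium channel genes were higher, since Kcnd3 and Kcna5 then counted, and the medians were 1.08, 0.95 for the wider family and 0.80 for the accessory genes. Under a stricter filter of 1 FPKM the last 2 medians were -0.035 and -0.18, and Kcnd2 dropped out. The median spike-in factor, a pseudocount of 0.1 FPKM and a 1.5-fold threshold changed no count of potassium channel genes. No library could be left out in turn, since the table holds pooled values. No paired analysis was possible because each fraction has 1 pooled column without replicate numbers.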

Other observations

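A list of 17 genes for regulators of these channels or their currents, 16 of them found, had 15 above the level filter, of which the spike-in scale called 2 higher and 4 lower, and their median log2 fold was -0.54. The FPKM scale gave 0 higher, 11 lower and -2.29. Akap9, the anchoring protein that brings protein kinase A to Kcnq1, had 24.7 FPKM in the pellet and 21.0 FPKM in the soluble extract, with a log2 fold of 1.99, or 0.24 on the FPKM scale. Dlg1, a membrane scaffold, had 1.31, or -0.45. Of the 5 G protein subunit genes in the list, Gnai2 was lower at -1.34 (19.0 FPKM in the pellet and 163 FPKM in the soluble extract) and Gnb2 at -1.24. The other 3 were within 2-fold, with Gnb1 at -0.74, Gnai3 at -0.54 and Gnao1 at 0.55. Prkaca, the catalytic subunit of protein kinase A, had -1.09. Chrm2, the muscarinic receptor that acts on the channel of Kcnj3 and Kcnj5, was within 2-fold at 0.94, with 17.9 FPKM in the pellet and 31.4 FPKM in the soluble extract.

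The 12 cardiac transcription factor genes above the level filter, of 14 found, had 0 higher and 0 lower and a median of 0.33, or 0 and 8 with -1.43 on the FPKM scale. Irx5, known for repressing Kcnd2 in the ventricle of mice, had 0.684 FPKM in the pellet and 2.55 FPKM in the soluble extract, with a log2 fold of -0.15.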
